A study of Mus musculus with 12 samples.

Results

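Complement and coagulation proteins circulate in plasma and are made mainly by hepatocytes. Here 35 of their genes were listed for description in mouse liver RNA measured on Affymetrix Gene 1.0 ST arrays. A gene counted as a member when a transcript cluster, the set of probes for 1 locus, carried its symbol alone in the platform annotation, and where it had more than 1 cluster the one with the highest mean over the 12 arrays was used. Of the 35 genes, 32 had such a cluster, out of 19938 genes with 1 on the array. Klkb1 stood on a cluster that carried a second symbol too, and it was not analysed here, nor were C3 and Cpb2. The values are log2 signals from RMA (robust multi-array average, which corrects background, normalizes between arrays and summarises probes).

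The 12 livers formed 4 groups of 3: hypothyroid mutants numbered 5, 6 and 7, hypothyroid controls numbered 17, 18 and 20, euthyroid mutants numbered 2, 3 and 4, and euthyroid controls numbered 13, 14 and 15. The mutants are L-NCoR∆ID mice, whose livers carry a changed form of NCoR, a corepressor of nuclear receptors, and the study asked what part NCoR plays in genes that thyroid hormone raises and in genes that it lowers. Sources used here give neither the promoter behind the liver mutation nor the genotype of the controls, the way hypothyroidism was produced, the age or the sex. Ncor1, the gene of NCoR, was not analysed here, so the genotype labels were not checked on it. Each array is numbered as 1 sample, and nothing says whether the mice shared litters.

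Complement marks microbes and damaged cells for removal. It can start from antibody, through C1 and its substrates C4 and C2, or from sugars on a surface, through mannose-binding lectins and their proteases, and it ends with the assembly of C5 to C9 into a pore. Coagulation runs through serine proteases, several of which need vitamin K for their maturation, to thrombin, which turns fibrinogen into fibrin; antithrombin and protein C restrain it, and plasmin dissolves the clot. In people, a lack of thyroid hormone is known to change plasma levels of several clotting factors. NCoR binds unliganded thyroid hormone receptors and lowers the transcription of their target genes.

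The samples are whole liver RNA. Of 9 hepatocyte markers 7 were measured, and their mean log2 signal lay between 12.3 and 12.5 on every array. Markers of neutrophils (2.78 to 3.14) and of megakaryocytes and platelets (3.41 to 3.79) lay below the array medians (4.16 to 4.32), and those of cholangiocytes (4.07 to 4.38) lay around them. Kupffer cell markers, of the resident liver macrophages, ranged from 5.09 to 6.89. Sinusoidal endothelium markers lay at 6.72 to 7.49, stellate cell markers at 6.40 to 6.93 and lymphocyte markers at 3.47 to 4.19. The SD of log2 signals over an array was 2.32 to 2.35 in hypothyroid mutants, 2.29 to 2.30 in hypothyroid controls, 2.26 to 2.31 in euthyroid mutants and 2.22 to 2.28 in euthyroid controls. On euthyroid control replicate 14, which had the lowest SD, 10 of the 32 members had their lowest signal of the 12 arrays, as did 23% of all clusters. Hypothyroid mutant replicate 5 was lowest for 7 members (6.79% of all clusters) and hypothyroid control replicate 20 for 6 (6.6%). Hypothyroid mutant replicate 7 was highest for 8 members (16.8% of all clusters) and euthyroid control replicate 15 for 9 (6.72%). All 32 members lay above the array median on all 12 arrays, and 29 had a mean above 8, a level that 9.42% of all clusters passed.

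Most of the cascade genes differed little between the groups. Averaged over both thyroid states, C2, the protease of the classical and lectin pathways, rose in mutant liver and C8a, the alpha chain of the pore component C8, fell. Averaged over both genotypes, Mbl1, a mannose-binding lectin, fell in hypothyroid liver. None of the other 29 members was called in any of 7 comparisons with limma, in which a call is a Benjamini-Hochberg adjusted p under 0.05 over 21789 clusters. The 2 calls among 32 members for the averaged mutant effect make up 6.25%, against 1.14% of all clusters, and the 1 call for the averaged thyroid effect 3.12%, against 6.04%. Over all clusters the mutant calls were 0.904% higher and 0.234% lower (197 and 51 clusters, and 178 and 81 after quantile normalization). The thyroid calls numbered 910 higher and 407 lower, and 548 and 484 after quantile normalization.

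**Figure D1:**
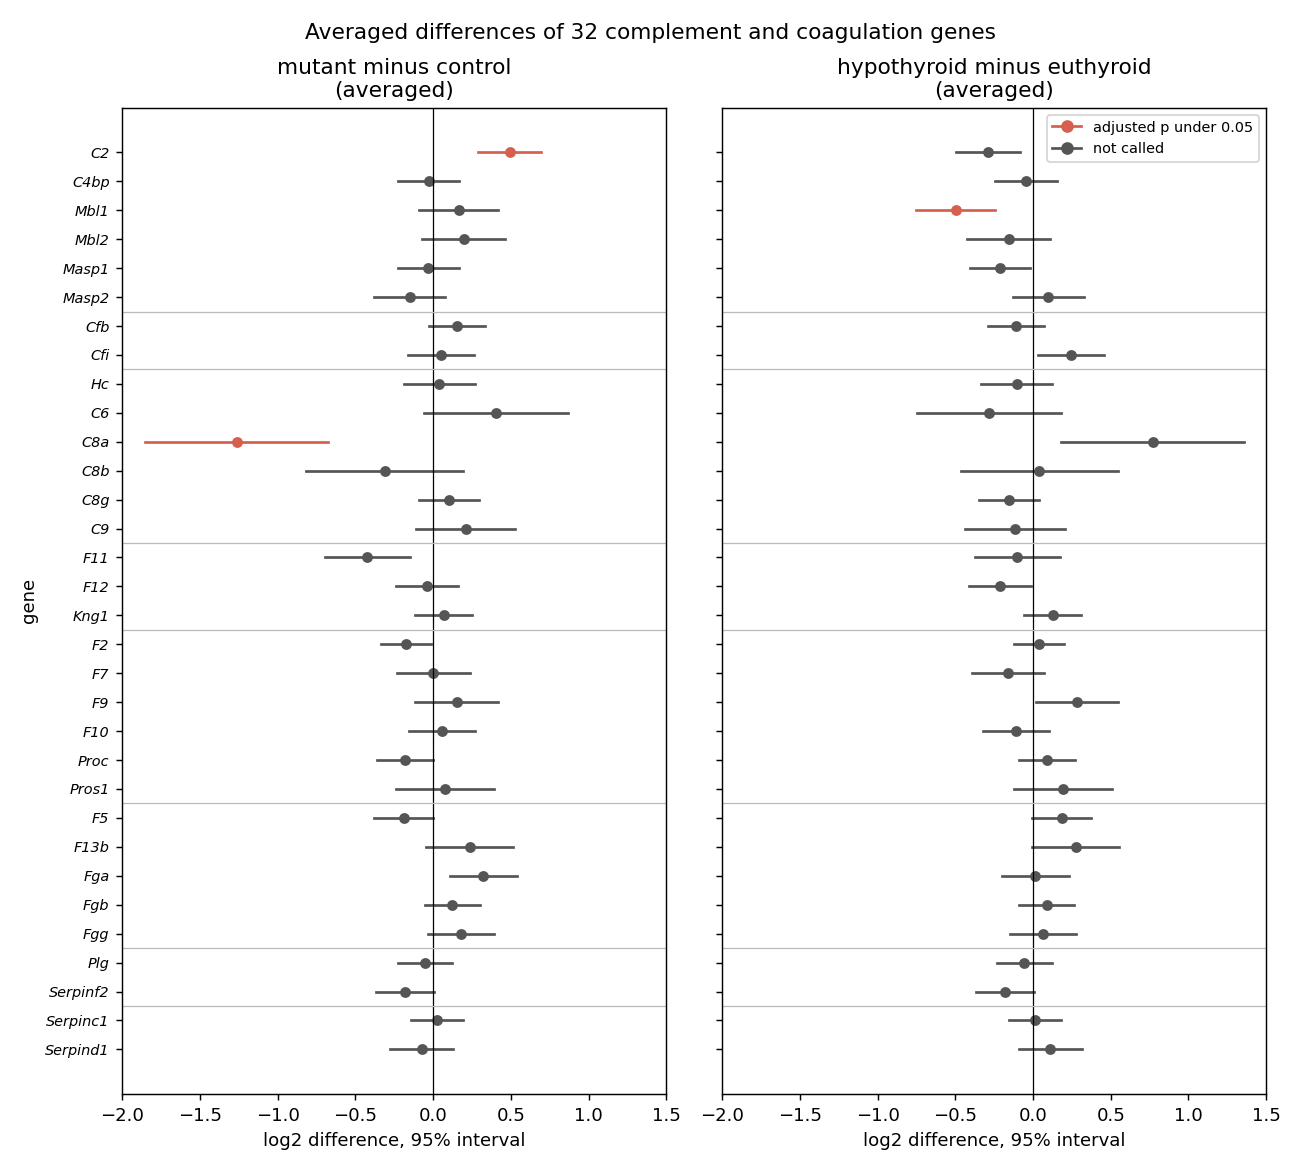
Averaged log2 differences (x axis) of the 32 members (y axis, grouped by role with grey lines), mutant minus control on the left and hypothyroid minus euthyroid on the right, with points for the estimate, bars for the 95% interval of the limma fit and red for adjusted p under 0.05. C2 (0.49) and C8a (-1.26) are red on the left and Mbl1 (-0.50) on the right.

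For the separate comparisons 0 of 32 members were called. These were mutant against control in euthyroid mice (3 members at an unadjusted limma p under 0.05, as were 8.13% of all clusters, of which 0.129% were called), the same in hypothyroid mice (4 members, 10.4% and 0.262%), hypothyroid against euthyroid in mutants (3 members, 15.8% and 1.11%) and in controls (4 members, 13% and 1.11%). The difference in mutant effect between thyroid states was not called for any member by limma, and its 95% interval lay within 1.5-fold for 17 of 32, with 1 member, C8a, at an unadjusted p under 0.05, against 2.75% of all clusters, of which 0% were called. The median member difference was 0.05 for the averaged mutant effect and -0.02 for the averaged thyroid effect, beside -0.01 and -0.02 over all clusters. In absolute size the median was 0.15 among members and 0.12 among all clusters for the mutant effect, and 0.12 and 0.14 for the thyroid effect.

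The intervals, each for 1 gene and not adjusted over members, give the sizes that the fit left possible. For the averaged mutant effect the 95% interval lay within 1.5-fold in either direction for 27 of the 32 members, all but C2, C6, C8a, C8b and F11. For the averaged thyroid effect it did so for 29, all but C6, C8a and Mbl1. Between single groups it did so for 25 (mutant effect, euthyroid mice), 23 (mutant effect, hypothyroid mice), 21 (thyroid effect, controls) and 26 (thyroid effect, mutants). The SE of the averaged effects ranged from 0.0758 for F2 to 0.276 for C8a. Between mice of 1 group, the SD of a member had a median of 0.154, and that of all clusters 0.193. The SD was largest for C8a (0.626), C8b (0.530) and C6 (0.482) and smallest for F2 (0.0367). Limma moves each variance toward a value shared by the fitted clusters, so the SE of F2 is larger than its own spread would give.

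**Figure D2:**
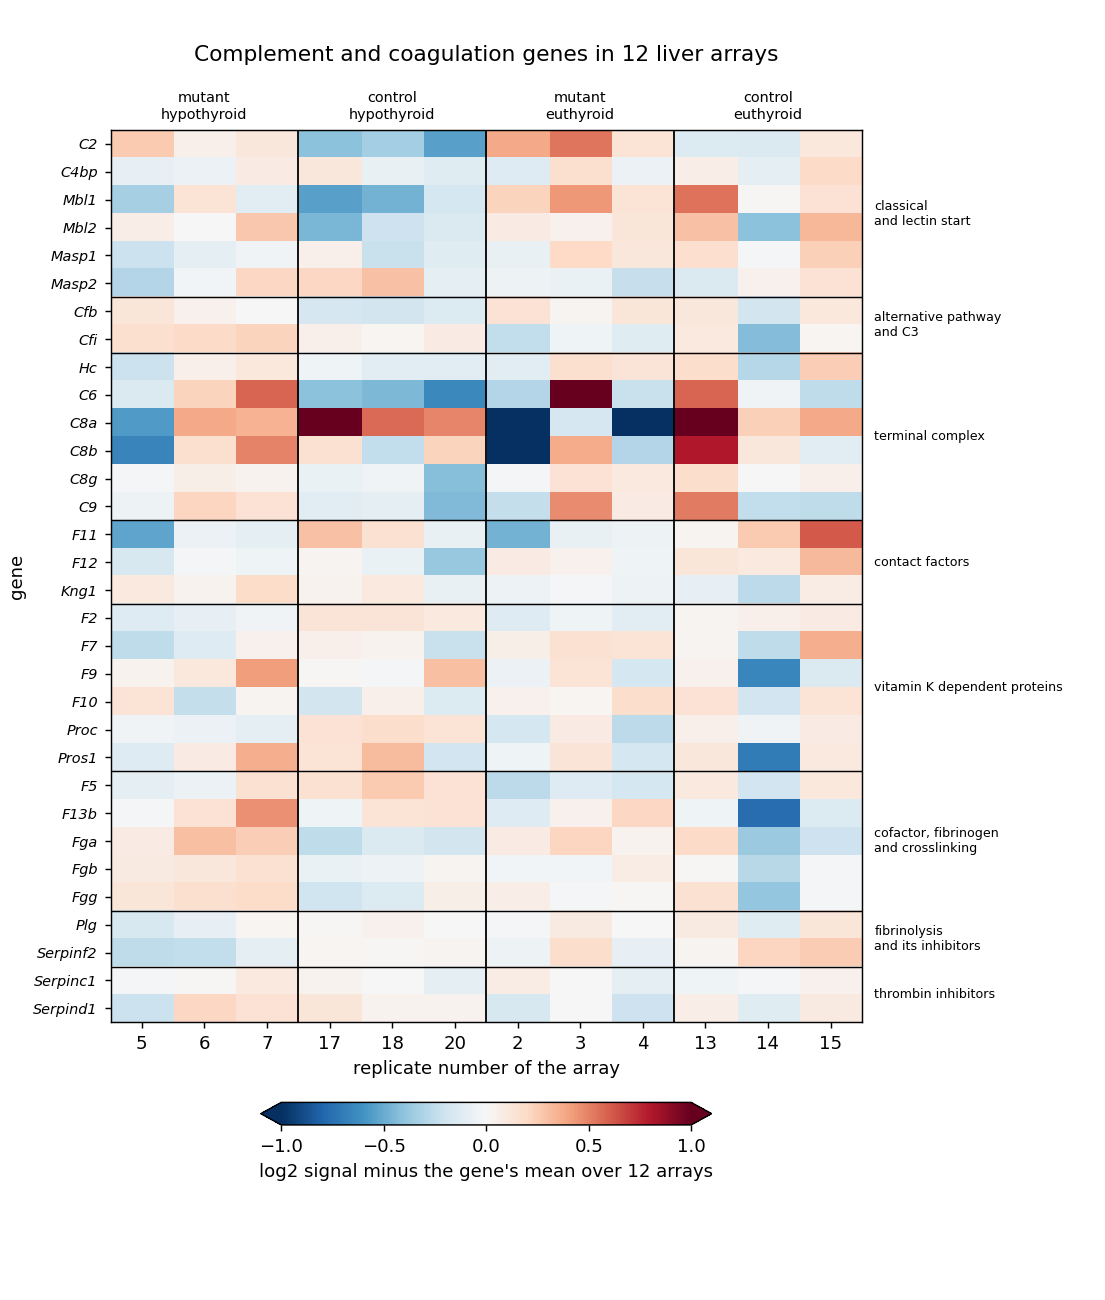
Log2 signal of each member minus its own mean over the 12 arrays (colour, with values past 1 in either direction at the end of the scale), with genes by role on the y axis and arrays by group and replicate number on the x axis. C8a is darkest blue in euthyroid mutant replicates 2 and 4, C8b in replicate 2, and euthyroid control replicate 14 is blue for many coagulation genes.

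The promoters of the members on which the results turn were taken from RefSeq (GRCm38.p6), 250 bases before to 50 after the start of the gene. Of the 32 members 25 were matched there by gene identifier, and C2 was not among them. Of 5 motifs searched on both strands, the capitals mark AGGTCA (the hexamer that thyroid hormone receptors and many other nuclear receptors recognise), GTTAAT (part of the site of the liver factor HNF1) and the box CCAAT. The sequences are those of C8a and its neighbour C8b, of Mbl1 and of F2, which encodes prothrombin and was the member whose mutants and controls separated fully:
C8a promoter (chr4:104876349-104876648, minus strand): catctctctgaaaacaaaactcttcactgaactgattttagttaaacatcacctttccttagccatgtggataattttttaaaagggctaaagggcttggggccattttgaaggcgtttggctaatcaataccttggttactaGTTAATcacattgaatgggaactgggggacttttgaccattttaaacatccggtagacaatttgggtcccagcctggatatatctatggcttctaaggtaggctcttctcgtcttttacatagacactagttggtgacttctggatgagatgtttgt
C8b promoter (chr4:104766067-104766366, plus strand): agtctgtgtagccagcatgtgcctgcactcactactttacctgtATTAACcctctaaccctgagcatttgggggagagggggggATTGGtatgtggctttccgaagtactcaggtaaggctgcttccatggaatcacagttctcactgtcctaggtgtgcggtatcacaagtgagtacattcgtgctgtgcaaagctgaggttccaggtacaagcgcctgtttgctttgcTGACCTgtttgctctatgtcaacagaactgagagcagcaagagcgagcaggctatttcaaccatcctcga
Mbl1 promoter (chr14:41151206-41151505, plus strand): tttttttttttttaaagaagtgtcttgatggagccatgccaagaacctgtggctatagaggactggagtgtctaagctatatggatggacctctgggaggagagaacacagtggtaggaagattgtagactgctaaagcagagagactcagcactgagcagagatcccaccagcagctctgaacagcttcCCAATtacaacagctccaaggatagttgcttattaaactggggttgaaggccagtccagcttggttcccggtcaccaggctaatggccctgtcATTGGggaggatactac
F2 promoter (chr2:91636408-91636707, minus strand): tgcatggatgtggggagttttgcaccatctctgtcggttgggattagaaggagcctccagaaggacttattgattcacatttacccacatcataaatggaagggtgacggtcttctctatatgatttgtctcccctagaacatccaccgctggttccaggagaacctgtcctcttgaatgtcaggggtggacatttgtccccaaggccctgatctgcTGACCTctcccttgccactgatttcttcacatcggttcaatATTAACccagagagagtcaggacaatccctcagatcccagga

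Of 25 members with a promoter, 11 held AGGTCA (44%), against 16.3% of all 32851 promoters. GTTAAT stood in 8 (32%), C4bp, C8a, C8b, F13b, F2, Fga, Fgb and Hc, against 7.1% of all. CCAAT was found in 6 (24%), against 37.4% of all. The longer TGACCTTTG, which overlaps the reverse of AGGTCA, stood in F7 and F9, against 0.478% of all, and the direct repeat of AGGTCA with 4 bases of any kind between its copies, which contains AGGTCA and is the usual arrangement of thyroid hormone receptor sites, was in 0 of 25, against 0.0152% of all. In the sequences above, C8a holds GTTAAT from base -107, where base 1 is the start of the gene, and C8b holds its reverse from base -206, CCAAT in reverse from -166 and AGGTCA in reverse from -20. Mbl1 holds CCAAT from -60 and its reverse from 34, and F2 holds AGGTCA in reverse from -33 and GTTAAT in reverse from 9. A match is a run of letters and no shown binding site.

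The classical and lectin pathways start with 6 of the measured members, C2, C4bp, Mbl1, Mbl2, Masp1 and Masp2. Of these 6, 1 was called for the averaged mutant effect (C2) and 1 for the averaged thyroid effect (Mbl1). Over all clusters 1.14% and 6.04% were called for these effects. In hypothyroid mice C2 was 7.48, 7.28 and 7.34 in mutants, against 6.82, 6.88 and 6.68 in controls. In euthyroid mice it was 7.60, 7.76 and 7.36 in mutants, against 7.08, 7.08 and 7.33 in controls. Mutants lay above controls in both thyroid states with no overlap, by 0.57 ± 0.136 (SE) in hypothyroid mice (limma adjusted p = 0.131) and by 0.41 ± 0.136 in euthyroid mice (limma adjusted p = 0.480). Hypothyroid mutants overlapped with euthyroid controls, so the 6 mutants and the 6 controls did not separate as whole sets. Averaged, C2 was 1.41-fold higher in mutants (log2 difference 0.49 ± 0.0958 SE, 95% interval 0.29 to 0.70, limma adjusted p = 0.0215).

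The call of C2 was lost without hypothyroid control replicate 17 (limma adjusted p = 0.0648) or 20 (0.0526), euthyroid mutant replicate 2 (0.0555) or 3 (0.0564), or hypothyroid mutant replicate 5 (0.0579), with differences of 0.45 to 0.50. With array SD as a covariate the difference was 0.43 (limma adjusted p = 0.282). C2 is made by macrophages as well as hepatocytes. Kupffer cell markers averaged 5.54 ± 0.397 (SD, n = 3) in hypothyroid mutants, against 5.18 ± 0.0974 in hypothyroid controls, and 6.30 ± 0.513 in euthyroid mutants, against 5.61 ± 0.0316 in euthyroid controls. All 8 of these markers had positive averaged mutant differences (0.21 to 0.86), and 1, Adgre1, was called (0.66 ± 0.145 SE, limma adjusted p = 0.0427, and in 3 of 12 fits with 1 array left out). Adgre1 was not called with array SD as a covariate (limma adjusted p = 0.578) or with every cluster tested (0.136). The part of these markers in the C2 difference was not tested. In whole liver RNA fewer cells of a type and less RNA per cell cannot be told apart.

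Hypothyroid C2 was lower than euthyroid C2 in controls with no overlap (-0.37 ± 0.136 SE), and the averaged thyroid difference was -0.29 ± 0.0958 SE (limma adjusted p = 0.0852). After quantile normalization this difference was called (-0.40, limma adjusted p = 0.0278). Cfb, factor B of the alternative pathway and the immediate neighbour of C2 on the genome, ranged from 11.42 to 11.53 in hypothyroid mutants, against 11.23 to 11.28 in hypothyroid controls. In euthyroid mice Cfb ranged from 11.44 to 11.56 in mutants, against 11.23 to 11.53 in controls, and its averaged mutant difference was 0.15 ± 0.0845 SE (limma adjusted p = 0.379). Hypothyroid controls were low for both neighbours, while the euthyroid groups overlapped for Cfb.

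**Figure D3:**
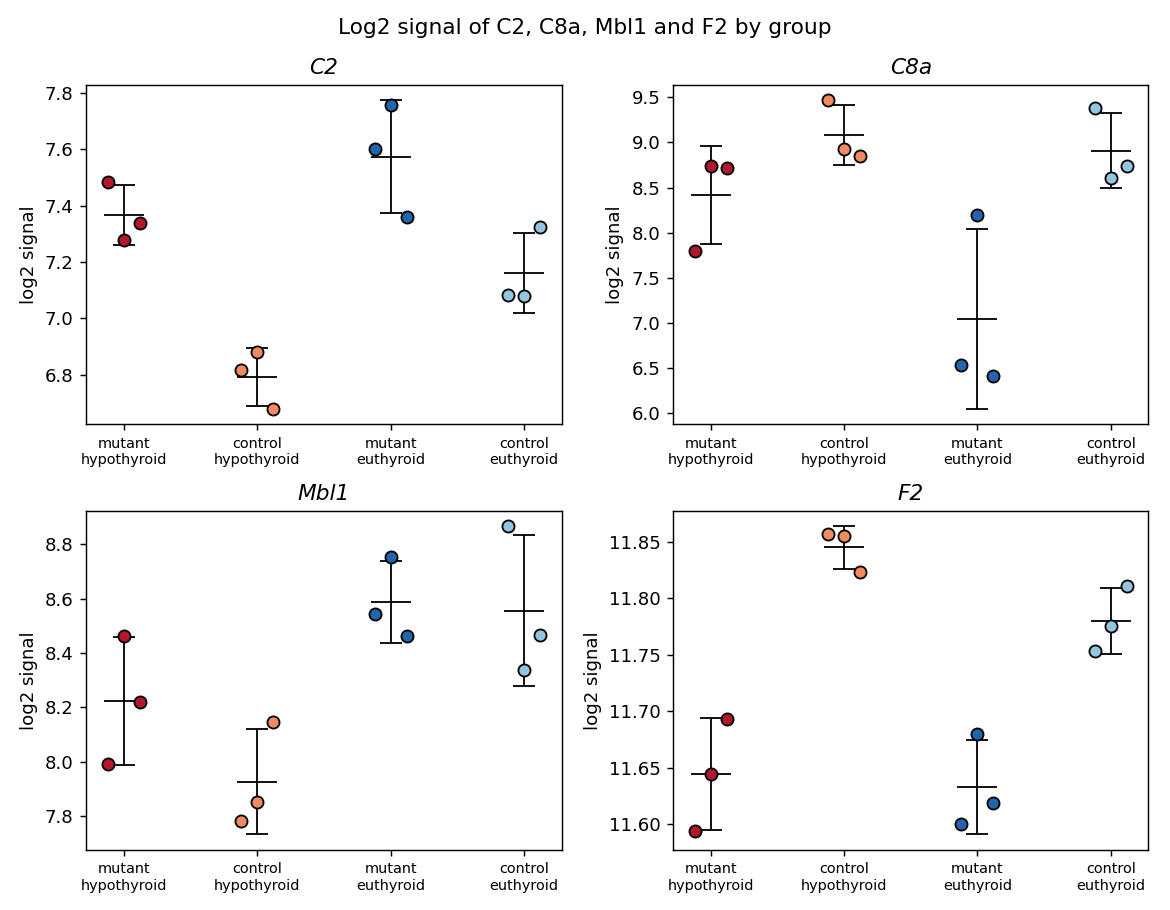
Log2 signal (y axis) of C2, C8a, Mbl1 and F2 in each mouse (points) by group (x axis), with the group mean and SD as bars (n = 3). Mutants lie above controls for C2 and below them for F2 in both thyroid states, and 2 of the 3 euthyroid mutants lie near 6.5 for C8a.

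Mbl1 is 1 of the 2 mannose-binding lectins of mice. It was 7.99, 8.46 and 8.22 in hypothyroid mutants, against 8.54, 8.75 and 8.46 in euthyroid mutants. In controls it was 7.78, 7.85 and 8.15 in hypothyroid mice, against 8.87, 8.34 and 8.46 in euthyroid mice. Hypothyroid mice lay below euthyroid mice within each genotype, in mutants only narrowly, since both groups reached 8.46. Averaged over genotypes, Mbl1 was 1.41-fold lower in hypothyroid liver (log2 difference -0.50 ± 0.119 SE, 95% interval -0.75 to -0.24, limma adjusted p = 0.0251), from -0.36 ± 0.168 SE in mutants (limma adjusted p = 0.314) and -0.63 ± 0.168 SE in controls (limma adjusted p = 0.0935). The call was lost without hypothyroid control replicate 17 (limma adjusted p = 0.0693) or 18 (0.0616), euthyroid mutant replicate 2 (0.0507) or 3 (0.0502), or hypothyroid mutant replicate 5 (0.0559) or 7 (0.0590), and after median centring (0.0572). With array SD as a covariate the difference was called and larger in size (-0.83).

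Mbl2, the other lectin, was 10.44, 10.38 and 10.65 in hypothyroid mutants, against 9.92, 10.17 and 10.23 in hypothyroid controls. In euthyroid mice it was 10.46, 10.42 and 10.50 in mutants, against 10.67, 9.97 and 10.71 in controls. Mutants and controls were apart only in hypothyroid mice. Mbl2 was not called for the averaged mutant effect (0.20 ± 0.124 SE, 95% interval -0.07 to 0.46) or the averaged thyroid effect (-0.16 ± 0.124 SE, -0.42 to 0.11). The lectin proteases Masp1 (averaged thyroid difference -0.21 ± 0.0916 SE) and Masp2 (0.10 ± 0.108 SE) and the inhibitor C4bp, which binds C4b and limits the pathway, were not called either. For C4bp the averaged differences were -0.03 for the mutant and -0.05 for the thyroid effect, with intervals that reached no further than 0.24 from 0. After quantile normalization Masp1 passed as lower in hypothyroid liver (-0.33, limma adjusted p = 0.0334).

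The alternative pathway was covered by Cfb and by Cfi, the protease that cleaves C3b and C4b. Cfi ranged from 10.98 to 11.05 in hypothyroid mutants, against 10.85 to 10.91 in hypothyroid controls, and from 10.57 to 10.78 in euthyroid mutants, against 10.39 to 10.92 in euthyroid controls. Hypothyroid mutants were the highest group with no overlap. The averaged thyroid difference of Cfi was 0.24 ± 0.0988 SE (limma adjusted p = 0.146).

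The terminal pore genes held the member with the largest difference. C8a was 7.79, 8.74 and 8.71 in hypothyroid mutants, against 9.47, 8.93 and 8.85 in hypothyroid controls. In euthyroid mice it was 6.54, 8.19 and 6.41 in mutants, against 9.38, 8.60 and 8.74 in controls. Mutants lay below controls in both states, with euthyroid mutant replicates 2 and 4 far below every other array. Averaged, C8a was 2.40-fold lower in mutants (log2 difference -1.26 ± 0.276 SE, 95% interval -1.85 to -0.68, limma adjusted p = 0.0389). The size was -0.67 ± 0.390 SE in hypothyroid mice (limma adjusted p = 0.558) and -1.86 ± 0.390 SE in euthyroid mice (limma adjusted p = 0.0978), and these 2 sizes differed by 1.20 ± 0.551 SE, which was not called (limma adjusted p = 1.00).

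For the averaged mutant effect 248 clusters were called with all arrays, 1866 without euthyroid control replicate 13 and 158 without euthyroid mutant replicate 3. The call of C8a was kept without euthyroid control replicate 13 (limma adjusted p = 0.0250) or euthyroid mutant replicate 3 (0.00222). Without any other single array, namely euthyroid control replicates 14 and 15, all 3 hypothyroid controls, euthyroid mutant replicates 2 and 4, and all 3 hypothyroid mutants, limma gave an adjusted p of 0.0534 to 0.126, with differences of -1.35 to -1.10. Without euthyroid mutant replicate 3, the highest of its group, C8a was called in euthyroid mice as well (-2.44, limma adjusted p = 0.00607). For hypothyroid against euthyroid mutants the C8a difference was 1.37 ± 0.390 SE and was not called (limma adjusted p = 0.126), and without that replicate it was called (1.94, limma adjusted p = 0.00613). The averaged thyroid difference of C8a, 0.77 ± 0.276 SE, was the most positive of the 32 members and was not called (limma adjusted p = 0.104). It was called without euthyroid mutant replicate 3 (1.06, limma adjusted p = 0.00803) or euthyroid control replicate 13 (0.89, limma adjusted p = 0.0434). Those fits called 1294 and 3579 of 21789 clusters for this effect, against 1317 with all arrays. With array SD as a covariate the averaged mutant difference of C8a was -2.01.

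C8b, the beta chain, is the immediate neighbour of C8a on the genome. It was 8.84, 9.66 and 9.998 in hypothyroid mutants, against 9.66, 9.25 and 9.73 in hypothyroid controls. In euthyroid mice it was 8.49, 9.87 and 9.21 in mutants, against 10.30, 9.62 and 9.40 in controls. Groups overlapped throughout, and the lowest C8b signals were those of euthyroid mutant replicate 2 and hypothyroid mutant replicate 5. For C8a, hypothyroid mutant replicate 5 was the lowest of its group (7.79). Euthyroid mutant replicate 2 (6.54) was the middle one of its group for C8a, above replicate 4 (6.41). The averaged mutant difference of C8b was -0.31 ± 0.237 SE (95% interval -0.82 to 0.19, limma adjusted p = 0.526). C8g, the gamma chain, had a far smaller spread and an averaged mutant difference of 0.10 ± 0.0911 SE (limma adjusted p = 0.598).

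**Figure D4:**
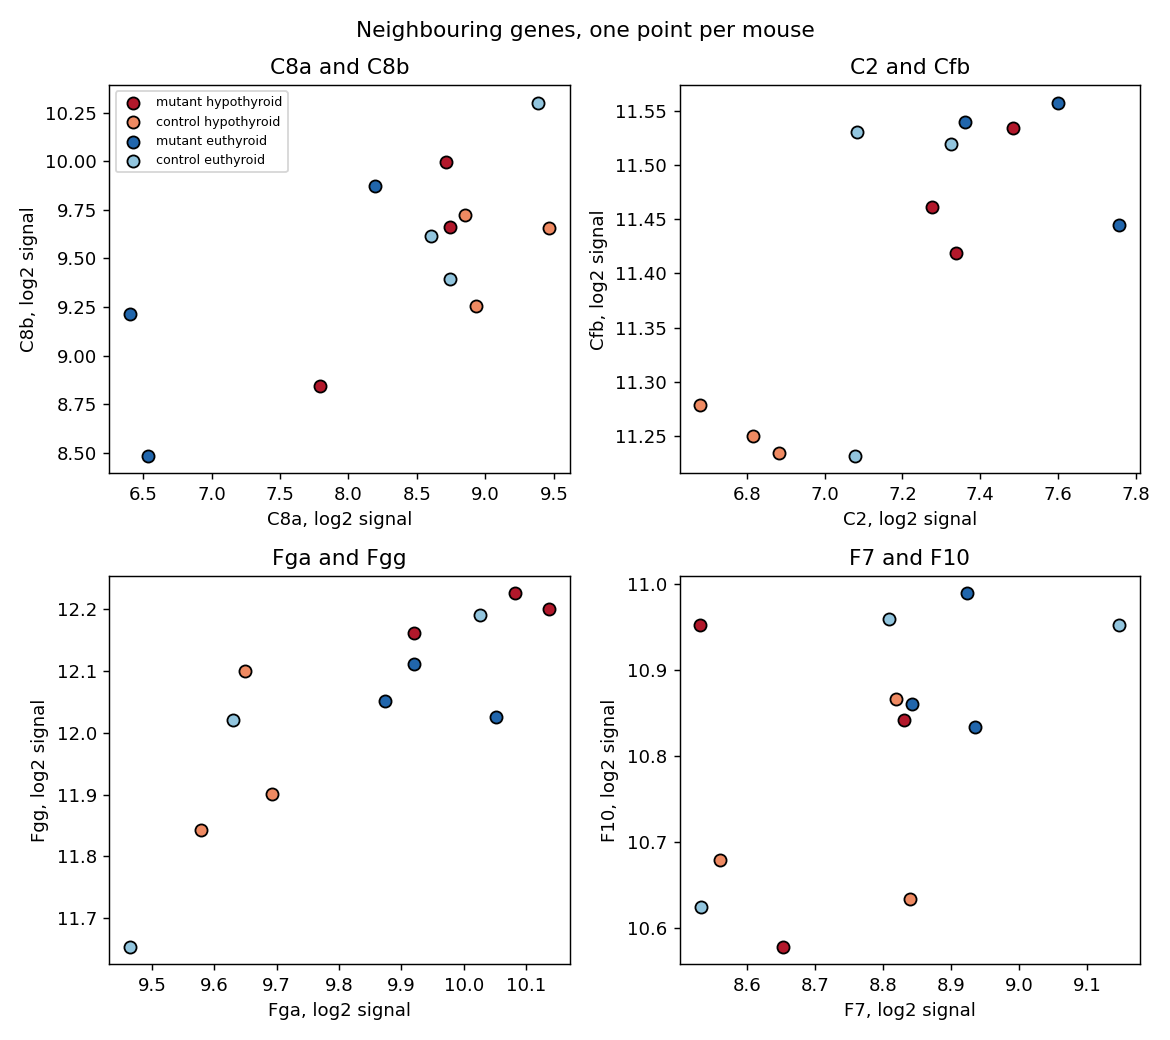
Log2 signals of 4 pairs of neighbouring members, 1 on each axis, with 1 point per mouse coloured by group. Euthyroid mutant replicates 2 and 4 (C8a near 6.5) lie left of all other mice in the C8a and C8b panel, hypothyroid controls lie at the lower left for C2 and Cfb, and euthyroid control replicate 14 is lowest for Fga and Fgg.

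C6 and C9, which join the pore before and after C8, varied among mice within groups. C6 was 5.10, 5.47 and 5.82 in hypothyroid mutants, against 4.83, 4.80 and 4.60 in hypothyroid controls, with no overlap. In euthyroid mice C6 was 4.95, 6.32 and 5.02 in mutants, against 5.82, 5.21 and 4.99 in controls, where the groups overlapped. The averaged mutant difference of C6 was 0.41 ± 0.217 SE (95% interval -0.06 to 0.87, limma adjusted p = 0.364).

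C9 was 9.18, 9.45 and 9.37 in hypothyroid mutants, against 9.12, 9.13 and 8.79 in hypothyroid controls. In euthyroid mice C9 was 8.997, 9.70 and 9.32 in mutants, against 9.75, 8.99 and 8.98 in controls. Euthyroid mutant replicate 3 and euthyroid control replicate 13 were the highest of their groups for C6, C8b and C9 alike. Hc, the mouse gene of C5, was 10.32, 10.58 and 10.63 in hypothyroid mutants, against 10.49, 10.42 and 10.43 in hypothyroid controls. It was 10.42, 10.68 and 10.66 in euthyroid mutants, against 10.70, 10.24 and 10.78 in euthyroid controls. The groups overlapped, and the averaged differences of Hc were 0.04 ± 0.108 SE (mutant) and -0.11 ± 0.108 SE (thyroid).

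Contact factors start coagulation on surfaces. F11, the zymogen of factor XIa, was 7.48, 7.94 and 7.91 in hypothyroid mutants, against 8.30, 8.15 and 7.93 in hypothyroid controls. It was 7.53, 7.93 and 7.95 in euthyroid mutants, against 8.03, 8.26 and 8.61 in euthyroid controls. Mutants lay lower with no overlap in euthyroid mice, while 1 hypothyroid control was within the mutant range. The averaged mutant difference of F11 was -0.42 ± 0.128 SE (95% interval -0.70 to -0.15, limma adjusted p = 0.130). It was called only without euthyroid control replicate 13 (-0.49, limma adjusted p = 0.0291). Without that array 1866 of 21789 clusters were called for this effect, against 248 with all arrays. F12, which activates F11, had an averaged thyroid difference of -0.21 ± 0.0931 SE (limma adjusted p = 0.176), called after quantile normalization (-0.37, limma adjusted p = 0.0298). Kng1, the kininogen that carries F11 and releases bradykinin, had averaged differences of 0.07 (mutant) and 0.13 (thyroid) and was not called.

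Of the 6 vitamin K dependent proteins measured, 0 were called in any comparison. F2, prothrombin, was 11.59, 11.64 and 11.69 in hypothyroid mutants, against 11.86, 11.85 and 11.82 in hypothyroid controls. It was 11.60, 11.68 and 11.62 in euthyroid mutants, against 11.75, 11.78 and 11.81 in euthyroid controls. Each of the 6 mutants lay below each of the 6 controls, the 1 member of 32 (3.12%) of which this held, against 1.05% of all clusters in either direction and 0.404% with mutants lower. F2 was 1.13-fold lower in mutants (log2 difference -0.17 ± 0.0758 SE, 95% interval -0.34 to -0.01), which was not called (limma adjusted p = 0.268). The averaged thyroid difference of F2 was 0.04 ± 0.0758 SE.

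Proc, protein C, which inactivates factors Va and VIIIa, was 9.76, 9.73 and 9.70 in hypothyroid mutants, against 9.94, 9.97 and 9.93 in hypothyroid controls. It was 9.62, 9.87 and 9.53 in euthyroid mutants, against 9.84, 9.76 and 9.88 in euthyroid controls. Mutants and controls were apart only in hypothyroid mice, and hypothyroid controls also lay above euthyroid controls. The averaged mutant difference of Proc was -0.18 ± 0.0846 SE (limma adjusted p = 0.294). F9, the haemophilia B factor, was 8.57, 8.64 and 8.95 in hypothyroid mutants, against 8.55, 8.52 and 8.83 in hypothyroid controls. It was 8.48, 8.67 and 8.36 in euthyroid mutants, against 8.58, 7.89 and 8.39 in euthyroid controls. The value of euthyroid control replicate 14 (7.89) stood below all others, and the averaged thyroid difference of F9 was 0.28 ± 0.125 SE (limma adjusted p = 0.178).

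The neighbours F7 and F10 encode the factors that tissue factor engages in turn. F7 was 8.53, 8.65 and 8.83 in hypothyroid mutants, against 8.84, 8.82 and 8.56 in hypothyroid controls. It was 8.84, 8.94 and 8.92 in euthyroid mutants, against 8.81, 8.53 and 9.15 in euthyroid controls. Its averaged mutant difference was 0.00 ± 0.110 SE (95% interval -0.23 to 0.23), within the spread between mice. F10 was 10.95, 10.58 and 10.84 in hypothyroid mutants, against 10.63, 10.87 and 10.68 in hypothyroid controls. It was 10.86, 10.83 and 10.99 in euthyroid mutants, against 10.96, 10.62 and 10.95 in euthyroid controls. The averaged mutant difference of F10 was 0.06 ± 0.0990 SE and the averaged thyroid difference -0.11 ± 0.0990 SE, neither called. Pros1, the cofactor of protein C, had averaged differences of 0.08 (mutant) and 0.19 (thyroid), with a signal of 6.94 on euthyroid control replicate 14 and of 7.45 to 8.001 on the other arrays.

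The 3 fibrinogen chain genes lie in 1 cluster on the genome. Fga was 9.92, 10.14 and 10.08 in hypothyroid mutants, against 9.58, 9.69 and 9.65 in hypothyroid controls. It was 9.92, 10.05 and 9.87 in euthyroid mutants, against 10.03, 9.47 and 9.63 in euthyroid controls. Hypothyroid mutants were higher with no overlap, and in euthyroid mice control replicate 13 lay within the mutant range. The averaged mutant difference of Fga was 0.32 ± 0.102 SE (95% interval 0.11 to 0.54, limma adjusted p = 0.141), and 0.49 ± 0.136 SE (limma adjusted p = 0.103) in its second cluster. Without euthyroid control replicate 13 the main cluster of Fga was called (0.40, limma adjusted p = 0.0160). So were 1866 of all 21789 clusters in that fit, against 248 with all arrays.

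Fgb was 12.58, 12.60 and 12.64 in hypothyroid mutants, against 12.42, 12.44 and 12.52 in hypothyroid controls. It was 12.46, 12.46 and 12.56 in euthyroid mutants, against 12.50, 12.21 and 12.47 in euthyroid controls. Fgg was 12.16, 12.20 and 12.23 in hypothyroid mutants, against 11.84, 11.90 and 12.10 in hypothyroid controls. In euthyroid mice Fgg was 12.11, 12.03 and 12.05 in mutants, against 12.19, 11.65 and 12.02 in controls. For all 3 chains the hypothyroid mutants lay above the hypothyroid controls, the euthyroid groups overlapped, and euthyroid control replicate 14 was the lowest array. The averaged mutant differences of Fgb (0.12 ± 0.0835 SE, limma adjusted p = 0.470) and Fgg (0.18 ± 0.0992 SE, limma adjusted p = 0.381) were not called.

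F13b, the carrier chain of the enzyme that crosslinks fibrin, was 9.33, 9.50 and 9.81 in hypothyroid mutants, against 9.31, 9.49 and 9.50 in hypothyroid controls. It was 9.23, 9.39 and 9.56 in euthyroid mutants, against 9.31, 8.59 and 9.22 in euthyroid controls. Apart from 8.59 on euthyroid control replicate 14 the values overlapped, and the averaged thyroid difference was 0.27 ± 0.130 SE (limma adjusted p = 0.207). F5, the cofactor that speeds the activation of prothrombin, ranged from 9.31 to 9.82 over all arrays, with an averaged mutant difference of -0.19 ± 0.0892 SE and an averaged thyroid difference of 0.18 ± 0.0892 SE, neither called.

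Fibrinolysis and the thrombin inhibitors gave narrow ranges. Plg, plasminogen, was 11.90, 11.98 and 12.08 in hypothyroid mutants, against 12.07, 12.11 and 12.07 in hypothyroid controls. It was 12.04, 12.15 and 12.06 in euthyroid mutants, against 12.15, 11.94 and 12.18 in euthyroid controls. Its averaged mutant difference was -0.05 ± 0.0824 SE (95% interval -0.23 to 0.12). Serpinf2, the plasmin inhibitor, ranged from 11.195 to 11.36 in hypothyroid mutants, against 11.46 to 11.47 in hypothyroid controls, and from 11.37 to 11.62 in euthyroid mutants, against 11.47 to 11.70 in euthyroid controls. Its hypothyroid mutants were the lowest group with no overlap, and the averaged mutant difference was -0.18 ± 0.0863 SE (limma adjusted p = 0.309).

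Serpinc1, antithrombin, was 11.50, 11.52 and 11.61 in hypothyroid mutants, against 11.54, 11.50 and 11.41 in hypothyroid controls. It was 11.58, 11.50 and 11.41 in euthyroid mutants, against 11.46, 11.50 and 11.55 in euthyroid controls. All 4 groups overlapped, and the averaged differences were 0.03 ± 0.0792 SE for the mutant effect (95% interval -0.14 to 0.19) and 0.01 ± 0.0792 SE for the thyroid effect (-0.16 to 0.18). Serpind1, heparin cofactor II, had averaged differences of -0.07 (mutant) and 0.11 (thyroid), each with an SE of 0.0953, and was not called.

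In hypothyroid mice mutants and controls did not overlap for 14 of 32 members (43.8%), against 22.5% of all clusters and 33.8% of the clusters with a mean above 8, a limit chosen after the values were seen. In euthyroid mice the count was 5 (15.6%), against 10.4% and 16.4%. For hypothyroid against euthyroid mice it was 8 in mutants (25%, against 25.7% and 45.5%) and 9 in controls (28.1%, against 16.7% and 33.1%). The 10 members higher in hypothyroid mutants were C2, C6, C8g, C9, Cfb, Cfi, Mbl2, Fga, Fgb and Fgg, against 12.4% of all clusters, and the 4 lower ones C8a, F2, Proc and Serpinf2, against 10.2%. None of these 14 was called by limma in that comparison, and the array SDs of these mutants (2.32 to 2.35) lay above those of these controls (2.29 to 2.30). With array SD as a covariate the median member difference in hypothyroid mice was -0.16, against 0.06 without. Since array SD separates these mutants from these controls, its part and that of the mutation cannot be told apart.

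Other genes of the same pathways, made by hepatocytes or by other cells, were listed with earlier results known, and 49 of 54 were measured. For the averaged mutant effect 0 of 49 were called. The largest positive differences were those of C1qb (0.70 ± 0.224 SE), Tfpi2 (0.51 ± 0.139 SE) and C1qa (0.47 ± 0.158 SE). The most negative were those of Hgfac (-0.32), C1rl (-0.28) and C1s1 (-0.25), with limma adjusted p of 0.0966 to 0.313 over these 6. C1qa, C1qb and C1qc encode the chains of the antibody-binding part of C1 and are made by macrophages.

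For the averaged thyroid effect 6 of the 49 were called lower in hypothyroid liver and 0 higher. Over all clusters 1.87% were called lower and 4.18% higher. Called or not, 17 of the 49 had positive differences, up to 0.36. C4b, the complement component that C2 joins, averaged 9.75 ± 0.106 (SD, n = 3) in hypothyroid mutants, against 10.15 ± 0.269 in euthyroid mutants, and 9.64 ± 0.0657 in hypothyroid controls, against 10.26 ± 0.171 in euthyroid controls. Hypothyroid mice lay at 9.56 to 9.86 and euthyroid mice at 9.93 to 10.45, with no overlap, and C4b fell by 0.51 ± 0.104 SE (limma adjusted p = 0.00957). C4a, a near-identical copy that can share its probes, fell by 0.52 ± 0.126 SE (limma adjusted p = 0.0274), so the copies stay uncertain. Fgl1, a fibrinogen-like liver protein, fell by 0.79 ± 0.167 SE (limma adjusted p = 0.0121), Cpn2, a subunit of the carboxypeptidase that trims complement peptides, by 0.43 ± 0.0898 SE (0.0109), and Procr, the protein C receptor, by 0.45 ± 0.0928 SE (0.0112). C1qc fell by 0.85 ± 0.211 SE (limma adjusted p = 0.0296). Procr lay below the array medians in every group (3.44 to 4.09).

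C4b, Cpn2, Procr and Fgl1 were called whichever array was left out (highest limma adjusted p 0.0379). The call of C1qc was lost without euthyroid control replicate 14, any hypothyroid control, euthyroid mutant replicate 2 or hypothyroid mutant replicates 5 or 7, and that of C4a without euthyroid control replicate 14, hypothyroid control replicates 17 or 20, euthyroid mutant replicates 2 or 3 or hypothyroid mutant replicates 6 or 7 (highest limma adjusted p 0.0748 and 0.0785). When array SD was a covariate, 0 of these 49 genes were called for the averaged thyroid effect. Over all 21789 clusters that covariate left 181 calls for this effect, against 1317 without it. Beside these falls, all 8 Kupffer cell markers had negative averaged thyroid differences (-0.98 to -0.34) and 2, Clec4f and Cd5l, were called. Of 15 acute phase genes, which inflammation raises in liver, 5 fell (Saa1, Saa2, Saa4, Orm2 and Itih4) and 0 rose, with a median of -0.32. With 1 array left out, Clec4f, Saa1 and Saa2 were called in 12 of 12 fits, Cd5l and Itih4 in 8, Saa4 in 7 and Orm2 in 4. When array SD was a covariate, 1 of these 15 acute phase genes, Saa2, was called lower, and the adjusted p by limma was 0.181 to 0.378 for the other 4. Of the 8 Kupffer cell markers, 4 were called lower with that covariate, against 2 without it. Group means of Saa1 (2.89 to 3.89) lay below the array medians. The part of these lists in the falls was not tested.

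Among liver transcription factors that bind promoters of plasma protein genes, 11 of 13 were measured, and 0 were called for the averaged mutant effect. Cebpa had the most negative mutant difference (-0.57 ± 0.138 SE, limma adjusted p = 0.0673) and Hnf4a had -0.21 ± 0.0896 SE (0.267). Onecut1 fell in hypothyroid liver by 0.90 ± 0.156 SE (limma adjusted p = 0.00337), and in each of 12 fits with 1 array left out, but was not called with array SD as a covariate.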

How the data were processed

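The authors deposited log2 values, made with RMA as named in the submitters' processing notes. Version, options, feature build and scan dates were not given in the sources used here. Liver RNA was purified with Trizol and RNeasy columns, per the labels' protocols, and hybridised as end-labelled cDNA. No value was missing among 35557 clusters and 12 arrays. In the platform annotation exactly 1 symbol was listed for 21789 clusters (19938 genes), several for 1621 and none for 12147. No filter on level was applied.

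The 12 arrays entered 1 fit of 4 group means in limma 3.58.1 (R 4.3.3), with 8 residual and 6.83 prior degrees of freedom. Adjustment was Benjamini-Hochberg over the 21789 clusters within each of 7 comparisons: 4 between single groups, 2 averages and their interaction. Intervals are 95% intervals of this fit, not adjusted over clusters, and the fit was tested on simulated data. Those data held independent normal noise and no outlying arrays, so they cannot show how the fit handles outlying arrays. Limma moves the variance of each cluster toward a value shared by the fitted clusters. SEs and p-values thus do not rest on a cluster's own spread alone, and they take in no variation beyond these samples. The number of arrays limits the precision. Signals of different clusters cannot be compared with each other as amounts of RNA. Levels set beside array medians, a level of 8 or other marker lists are thus levels of signal only.

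The members and lists were chosen with earlier results of these data known. Values on each array were given for called members, for the 3 highest and 3 lowest averaged differences of members, and for central proteins of each role. Of the other pathway genes, those called and the 3 most positive and 3 most negative averaged differences were to be given, and of the other lists single values. The 3 most positive averaged thyroid differences of the other pathway genes were not given by gene. Promoters and gene order came from RefSeq tables of GRCm38.p6, which served for sequences and names and not to place the clusters. Alternatives were quantile normalization, centring on array medians, the upper-level clusters (above the median), all clusters of the table, the compared groups alone, array SD as a covariate, trended and robust moderation, both outlying arrays left out, each array left out, and the second cluster of Fga.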

Additional observations from a re-analysis of the deposited data

How the results depend on the processing

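No paired analysis was possible because replicate numbers are not shared between groups. None of the 3 called differences changed sign under any of 19 alternatives. C2 stayed called in 11 of them (limma adjusted p 0.0138 to 0.282), C8a in 5 (0.00222 to 0.146) and Mbl1 in 11 (0.00354 to 0.0693). Of 221 member differences that were not called, 9 passed under at least 1 alternative, and 115 changed sign under at least 1.

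Calls of members for the averaged mutant effect numbered 2, and 1 after median centring (C2), with array SD as a covariate (C8a) or with trended and robust moderation (C2), 0 with every cluster tested or without euthyroid control replicate 14 and hypothyroid mutant replicate 7 together, and 0 to 4 with 1 array left out (4 without euthyroid control replicate 13, being C2, Fga, C8a and F11). For the averaged thyroid effect the count was 1, and 4 after quantile normalization (C2, F12, Masp1 and Mbl1), 0 after median centring or with every cluster tested, and 0 to 2 with 1 array left out. With 1 array left out, the count was 0 to 1 for the mutant effect in euthyroid mice and for the thyroid effect in mutants, and stayed 0 in the remaining 3 comparisons. In euthyroid mice array SD as a covariate gave 1 call (C8a), and in controls quantile normalization and the covariate each gave 1 for the thyroid effect (Mbl1). Calls over all clusters moved too, and without euthyroid control replicate 13 they numbered 1866 of 21789 for the averaged mutant effect, against 248. The cause of these changes was not tested.

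Array SD did not overlap between mutants and controls in hypothyroid mice, nor between thyroid states within either genotype. Fits with it as a covariate cannot tell its part from those effects. With array SD as a covariate the median member difference was -0.14 for the mutant effect in euthyroid mice, -0.16 in hypothyroid mice and -0.15 averaged, and -0.21 for the thyroid effect in mutants and -0.21 averaged. With 1 array left out these medians ranged from -0.10 to 0.06, -0.01 to 0.13, -0.04 to 0.08, -0.02 to 0.09 and -0.07 to 0.01, and those of the thyroid effect in controls and of the interaction from -0.16 to 0.02 and from 0.01 to 0.16. Calls over all clusters with 1 array left out ranged from 107 to 1866 for the averaged mutant effect (248 with all arrays). For the averaged thyroid effect they ranged from 680 to 3579 (1317 with all arrays). The highest count of each effect was the one without euthyroid control replicate 13. With every cluster tested the calls numbered 95 and 872, and with array SD as a covariate 41 and 181. In single groups they ranged from 6 to 192 for the mutant effect in euthyroid mice (28 with all arrays), from 21 to 133 in hypothyroid mice (57), from 89 to 620 for the thyroid effect in mutants (241) and from 134 to 864 in controls (242).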
